A study of Rattus norvegicus with 15 samples.

Results

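The genes described here are 7 parts of the circadian clock, namely the repressors Cry1, Cry2 and Bhlhb2, the kinases Csnk1d and Csnk1e, the nuclear receptor Rora and Timeless. They were taken by name from the annotation of the array, without the endings "_predicted" and "_mapped", and they make up 7 of the 35561 gene names on it. Together they have 9 probes, with 2 each for Csnk1d and Csnk1e. Of these, 8 probes from 6 genes were detected on all 15 arrays, while the probe of Rora was detected on 0 of them.

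RNA came from 8 rats of the Brown Norway strain, 6 weeks old and not exposed to any particular odorant, and from their olfactory epithelium, the lining of the nose that holds the odor-sensing neurons. Rats 1 to 4 and rats 5 to 8 each held 2 males (rats 1, 2, 5 and 6) and 2 females (rats 3, 4, 7 and 8), and the labels name no transgene or treatment for any of them. The nostrils, named A and B, were hybridised apart, except that only nostril A of rat 1 was measured, which gave 15 single-colour Agilent arrays. The study bought its rats from 2 suppliers, but the labels give neither the supplier of a rat nor the hour at which it was killed, and the rats had lived under a light and dark cycle before that. According to the study's methods, the RNA lost to the quality limit came from a male bought from Elevage Janvier. Rat 1, a male, is the only rat with a single nostril here. Rats 1 to 4 may thus be the rats of that supplier and rats 5 to 8 those of Charles River Laboratories. The study also reports Dbp and both Per3 probes as higher in its Charles River rats than in those of Elevage Janvier. Here the same probes were 2.10 (Dbp), 2.13 and 2.11 (Per3) times as high in rats 5 to 8. No label names a supplier. If the sets are those of the suppliers, rat set and supplier cannot be told apart in any difference between the sets.

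In the clock of mammalian cells, the activators Clock and Arntl bind short DNA elements named E-boxes and switch on the genes of their own repressors, the Period and Cryptochrome proteins, which then shut the activators off. Casein kinases 1 delta and epsilon (Csnk1d, Csnk1e) phosphorylate the Period proteins and so set how long they last, Bhlhb2 (also named Bhlhe40 or Dec1) competes for E-boxes, and the Ror receptors activate Arntl where the receptors Nr1d1 and Nr1d2 repress it. Olfactory epithelium, like most tissues, holds such a clock, and its genes reach their highest transcript levels at different hours of the day. The question put to the members was therefore whether they differed between rats 1 to 4 and rats 5 to 8, as genes of a clock sampled at another phase would.

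Before the values, 2 sets of sequences are shown. The first is the pair of probes with which the array told the kinases apart, since these are close relatives and a shared signal would blur both. Of the 43 bases over which probe A_44_P509473 of Csnk1d and probe A_44_P192988 of Csnk1e could be laid side by side without gaps, 32 (74.4%) were the same, and the 11 that differed are in capitals.
Csnk1d probe A_44_P509473: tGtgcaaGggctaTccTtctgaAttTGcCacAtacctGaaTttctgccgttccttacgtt
Csnk1e probe A_44_P192988: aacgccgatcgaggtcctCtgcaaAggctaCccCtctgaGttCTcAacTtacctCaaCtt
Build rn3 of the rat genome, which the array annotation uses, places the first at chr10:110190804-110191584 and the second at chr7:117441866-117442407, intervals longer than the 60 bases of a probe. The second probes of the kinases, A_44_P994293 at chr10:110177231-110178094 and A_42_P515454 at chr7:117436960-117437569, resembled each other at 36.8% of 57 bases. The annotation names no exon, intron or untranslated region for a probe.

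The second is the stretch of 250 bases before the transcription start of Bhlhb2, shown because it alone among the members' stretches held the E-box CACGTG (in capitals), which reads the same on both strands. It lies at chr4:143174200-143174449 on the plus strand of build GRCr8 and comes from RefSeq, where the gene is named Bhlhe40.
Bhlhb2 promoter: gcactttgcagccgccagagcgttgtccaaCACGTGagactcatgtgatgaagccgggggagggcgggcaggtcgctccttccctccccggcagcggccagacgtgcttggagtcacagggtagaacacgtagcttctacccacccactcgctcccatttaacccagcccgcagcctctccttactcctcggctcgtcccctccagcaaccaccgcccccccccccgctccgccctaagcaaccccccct
The E-box begins 220 bases before the start. Sequences were found for 5 of the 7 members (Cry2, Bhlhb2, Csnk1e, Rora and Timeless), and 1 of the 5 held this motif, as did 5.59% of the 33469 stretches of the same length in the table. The D-box TTATGTAA, searched on both strands, was in 0 of the 5 and in 0.828% of the table. The Ror response element was in 0 of the 5 and in 0.317% of the table. A match is a string of letters and was not tested for binding.

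Levels are given as log2 of the signal over the median signal of the array, so that 1 unit is a doubling, and a value below 0 is dimmer than the median probe. Levels of different probes cannot be set against each other. The median signal was 68.1 to 83.4 intensity units on the 7 arrays of rats 1 to 4 and 57.4 to 74.2 on the 8 arrays of rats 5 to 8, and an array had 26233 to 28741 probes well above background. The tissue carried the markers of its name. All 6 probes of the olfactory neuron markers Omp, Gnal, Cnga2 and Adcy3 and all 4 of the sustentacular cell markers Cyp2g1, Sult1c1 and Cyp1a2 were detected on every array. Rats 1 to 4 lay on slides 1 and 2, rats 5 to 8 on slides 3 and 4, so that slide and rat set cannot be told apart. In bulk tissue, fewer cells of a type and less RNA per cell cannot be told apart either.

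No member passed the limma test between the rat sets. At an adjusted p of 1%, the threshold of the study, 0 of the 8 tested probes were called, against 0.0181% of the 27625 probes tested, and at 5% it was 0 of 8 against 0.786%. An unadjusted p under 0.05 was reached by 2 of the 8 (Bhlhb2 and Cry1), beside 19.1% of all probes, and in the methods' t-test by the same 2, beside 15.4%. The rats of both sets did not overlap for 1 of the 8 (Cry1), beside 11.3% of all probes. Both shares are near those of the whole array. Of the 8 probes, 3 were higher and 5 lower in rats 5 to 8, the median difference was -0.02 (0.02 over all probes) and the median size of the difference 0.14 (0.12 over all probes).

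**Figure D1:**
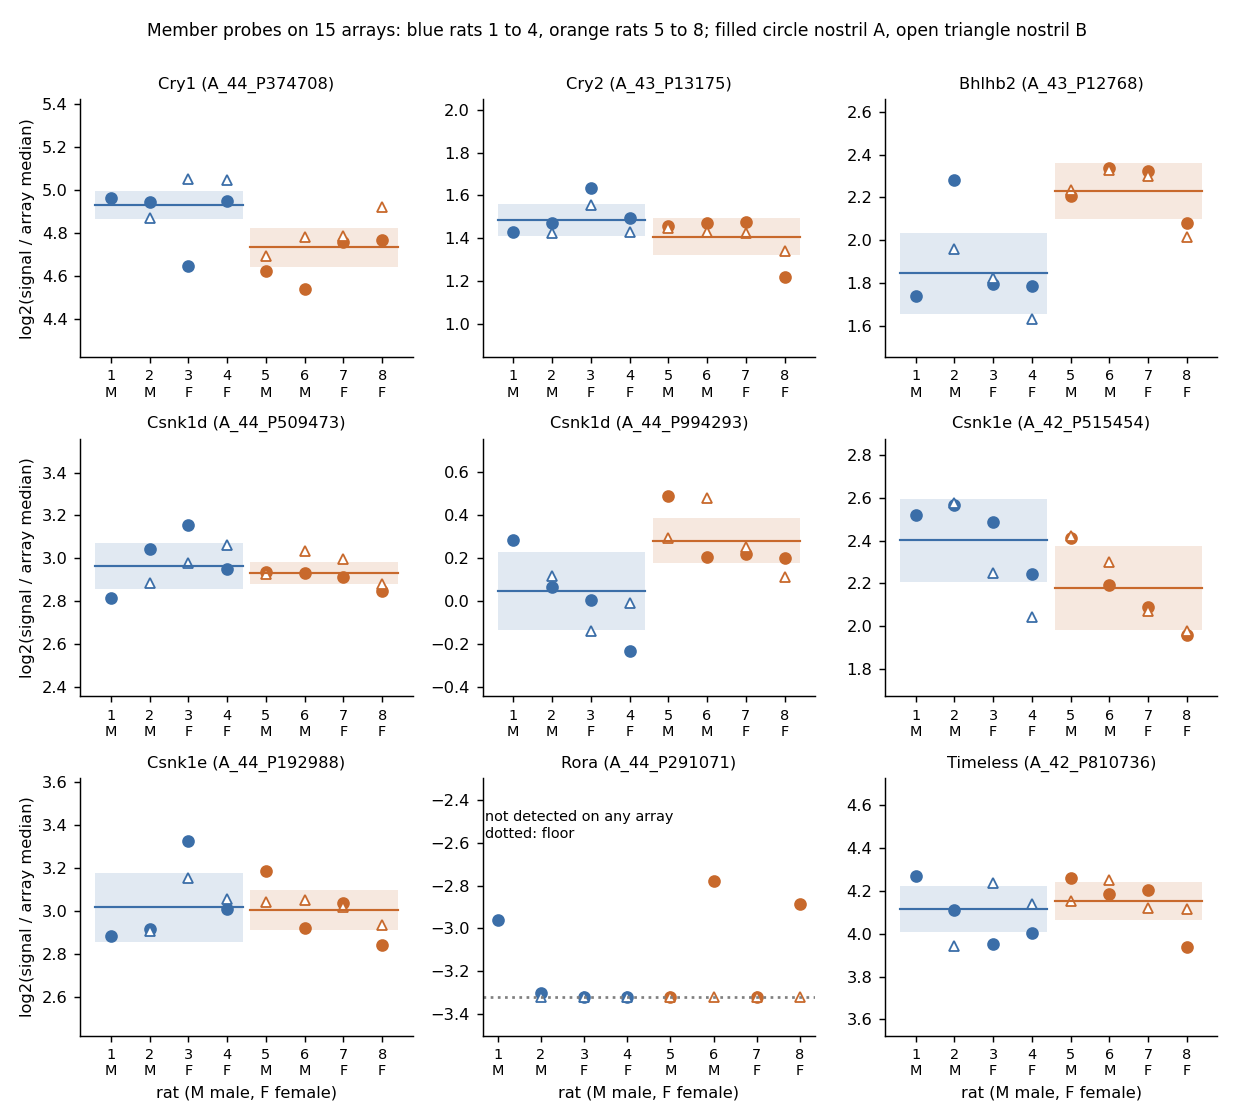
Levels of the 9 member probes, as log2 of signal over array median, in each rat (x axis), with filled circles for nostril A, open triangles for nostril B, a line for the mean of the 4 rats of a set and a band for its SD. Every panel spans the same range, and Bhlhb2 shows the widest step between the sets (1.85 against 2.23), while Rora lies at or near the floor.

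Among the repressors, Cry1, which binds the Clock and Arntl pair and holds it inactive, had a lower mean in rats 5 to 8 but was not called. Its probe A_44_P374708 (chr7:20729256-20729315, rn3) read 4.96 in nostril A of rat 1, 4.95 and 4.87 in nostrils A and B of rat 2, 4.65 and 5.05 in rat 3 and 4.95 and 5.05 in rat 4. In the other set it read 4.62 and 4.69 in rat 5, 4.54 and 4.78 in rat 6, 4.76 and 4.78 in rat 7 and 4.77 and 4.92 in rat 8. Once nostrils were averaged, the sets were separate by a hair, with rat 3 at 4.848 the lowest of rats 1 to 4 and rat 8 at 4.846 the highest of rats 5 to 8, and nostril A of rat 3 lay among the arrays of rats 5 to 8. The mean was 4.93 ± 0.07 (SD, n = 4) in rats 1 to 4 and 4.73 ± 0.09 (SD, n = 4) in rats 5 to 8. The difference of -0.20 (SE 0.07, 95% interval -0.34 to -0.05), a level 1.15 times as high in rats 1 to 4, had an adjusted p of 0.160 by limma (unadjusted p = 0.0147) and was not called.

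The difference in Cry1 stood at -0.28 between the males and at -0.12 between the females of the sets. Within rats, nostril B of this probe read higher than nostril A by 0.13 (SE 0.05) on average over 7 rats, an unadjusted p of 0.0377 by limma that the adjustment took to 0.781. Without nostril A of rat 3 the difference between the sets became -0.25 (limma, adjusted p = 0.104). With normexp background correction it shrank to -0.07 (limma, adjusted p = 0.912).

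Cry2, the sister of Cry1 with the same role, was not separate between the sets. Its probe A_43_P13175 (chr3:76699255-76699314, rn3) gave 1.43 in rat 1, 1.45 in rat 2, 1.60 in rat 3 and 1.46 in rat 4, then 1.45 in rats 5, 6 and 7 and 1.28 in rat 8. Rats of both sets thus lay together near 1.45, with rat 3 above and rat 8 below. The means were 1.48 ± 0.08 (SD, n = 4) and 1.41 ± 0.09 (SD, n = 4). Their difference of -0.08 (SE 0.08, 95% interval -0.25 to 0.10) had an adjusted p of 0.614 by limma. It was -0.039 without rat 3 and -0.033 without rat 8, and -0.12 without rats 6 and 7. The interval leaves room for a change of up to 0.25 log2 units downward.

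Bhlhb2, a repressor that is itself switched on through E-boxes in many tissues, had the widest difference of the members. Its probe A_43_P12768 (chr4:144389848-144389907, rn3) read 1.74 in nostril A of rat 1, 2.28 and 1.96 in rat 2, 1.80 and 1.83 in rat 3 and 1.79 and 1.64 in rat 4. In rats 5 to 8 it read 2.21 and 2.23, 2.34 and 2.33, 2.32 and 2.30, and 2.08 and 2.01. Rats 1, 3 and 4 lay below every rat of the other set, but rat 2, at 2.12, lay above rat 8, at 2.05. The nostrils were close in most rats, with a median gap of 0.03 and the widest, 0.32, in rat 2.

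The mean of Bhlhb2 was 1.85 ± 0.19 (SD, n = 4) in rats 1 to 4 and 2.23 ± 0.13 (SD, n = 4) in rats 5 to 8. The difference of 0.38 (SE 0.11, 95% interval 0.14 to 0.62), or 1.30-fold, had an adjusted p of 0.118 by limma (unadjusted p = 0.00546). It was of like size in both sexes, 0.35 between the males and 0.42 between the females, and each of these values compares different slides. Without rat 2 the difference was 0.47 with an adjusted p of 0.0318 by limma, past the 5% mark and not past 1%, in a fit that called 899 probes of the array at 5%, where 217 were called with all rats. Leaving out any other rat gave an adjusted p of 0.120 to 0.272 by limma.

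The summed level of skeletal muscle transcripts did not overlap between the rat sets, and neither did 11.3% of all single probes. Of 5 muscle markers, 4 were on the array (Acta1, Ckm, Myh4 and Tnnt3), 0 of their 4 probes were detected on all arrays and Myh4 was detected on none. Only Tnnt3 could be tested, and its difference of 1.36 did not pass 5% (limma, adjusted p = 0.0916). In rats 5 and 8 Tnnt3 alone of the 4 lay above the floor, at -1.57 and -1.68, beside -2.72 to -2.07 in rats 1 to 4. The summed level, mostly the floor in rats 1 to 4, was 0.465 to 0.551 array medians in rats 1 to 4 and 0.613 to 7.63 in rats 5 to 8, highest in rats 6 and 7. Rats 6 and 7 also had the highest levels of Bhlhb2, 2.33 and 2.31. Rat 5, at 2.22, lay above every rat of rats 1 to 4, and rat 8, at 2.05, above rats 1, 3 and 4. Leaving out the highest rats of the higher set lowers its mean in any case. Without rats 6 and 7, the difference of Bhlhb2 was 0.29 (limma, adjusted p = 0.567) and that of Cry1 -0.18 (limma, adjusted p = 0.591), in a fit of 4 against 2 rats. The part of muscle in these differences was not tested. The summed markers of red blood cells (114 to 846 and 104 to 1410) and of leukocytes (70.0 to 98.5 and 62.2 to 102) overlapped between the sets.

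For the kinases, the probes of 1 gene did not follow each other in all rats. Csnk1d probe A_44_P509473 read 2.82, 2.96, 3.07 and 3.00 in rats 1 to 4 and 2.93, 2.98, 2.96 and 2.86 in rats 5 to 8. The sets lay over each other, and the difference was -0.03 (SE 0.07, 95% interval -0.19 to 0.13; limma, adjusted p = 0.847). Csnk1d probe A_44_P994293 read 0.28, 0.09, -0.07 and -0.12 in rats 1 to 4 and 0.39, 0.34, 0.24 and 0.16 in rats 5 to 8. Here rats 2, 3 and 4 lay below every rat of the other set and rat 1 among them, with a difference of 0.23 (SE 0.11, 95% interval -0.01 to 0.48; limma, adjusted p = 0.282). With normexp this difference was 0.12 (limma, adjusted p = 0.648).

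The pair of Csnk1e probes was split in the same manner. Probe A_44_P192988 read 2.88, 2.91, 3.24 and 3.03 in rats 1 to 4 and 3.11, 2.99, 3.03 and 2.89 in rats 5 to 8, a difference of -0.01 (SE 0.09, 95% interval -0.22 to 0.19; limma, adjusted p = 0.951). That mean covered opposite signs, 0.15 between the males and -0.18 between the females, and the interaction of rat set and sex had an unadjusted p of 0.0447 by limma (adjusted p = 0.463). Such a p was reached by 1 of the 8 member probes, beside 10.6% of all probes. Probe A_42_P515454 read 2.52, 2.57, 2.37 and 2.14 in rats 1 to 4 and 2.42, 2.25, 2.08 and 1.97 in rats 5 to 8, and the sets overlapped, with a difference of -0.22 (SE 0.12, 95% interval -0.50 to 0.05; limma, adjusted p = 0.346).

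**Figure D2:**
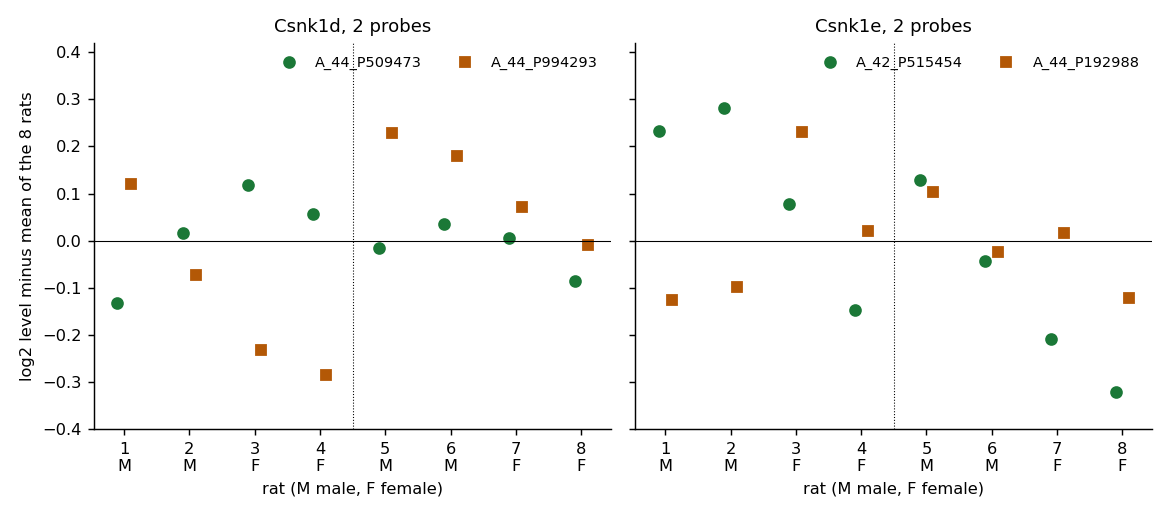
Level of each kinase probe in each rat, nostrils averaged, as log2 units above or below the mean of the 8 rats. In rats 3 and 4 probe A_44_P509473 of Csnk1d lies above its mean and probe A_44_P994293 below. In rats 1 and 2 probe A_42_P515454 of Csnk1e lies above its mean and probe A_44_P192988 below. Both probes lie on the same side of their means in rats 6, 7 and 8 for Csnk1d and in rats 3, 5, 6 and 8 for Csnk1e.

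Probe A_42_P515454 of Csnk1e was also the member whose rats differed most within a set. Males lay above females in each set, 2.52 and 2.57 against 2.37 and 2.14, then 2.42 and 2.25 against 2.08 and 1.97. Over all rats the females were lower by 0.30 (difference -0.30, SE 0.10), with an unadjusted p of 0.0176 and an adjusted p of 0.197 by limma. Measured against the gap between nostrils, rats of 1 set differed at an adjusted p of 0.0272 (limma F = 8.39). Slide 3 held the males and slide 4 the females of rats 5 to 8, where sex and slide cannot be told apart. In rats 1 to 4 a single female, rat 3, had its nostrils on different slides. Nostril A, on slide 1 with the males, read 2.49, beside 2.52 to 2.58 in the males, and nostril B, on slide 2, read 2.25, beside 2.24 and 2.04 in rat 4, whose nostrils shared that slide. This gap of 0.24 was the widest between nostrils of 1 rat for this probe, and the part of the slide in the difference between the sexes was not tested.

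No other member passed within a set. At 1% it was 0 of the 8 probes, beside 1.74% of all probes, and at 5% it was 1 of the 8, beside 14.1%. The next in order were Bhlhb2 (limma F = 5.01, adjusted p = 0.064) and Csnk1e probe A_44_P192988 (limma F = 4.7, adjusted p = 0.0717), and with scaling to the 75th percentile Bhlhb2 passed 5% (limma, adjusted p = 0.0372). Between the sexes 0 of the 8 passed 1%, beside 0.0434% of all probes, and 1 of the 8 had an unadjusted p under 0.05, beside 17.1%. Between the nostrils, 1 of the 8 (Cry1) had an unadjusted p under 0.05, beside 5.89% of all probes, and 0 passed 1% or 5%.

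Rora, which activates Arntl and other genes through Ror elements, could not be followed. Its single probe A_44_P291071 (chr8:73836649-73836708, rn3) gave 1.71 to 10.04 intensity units, while the dimmest signals called well above background were 10.01 to 14.49 units, depending on the array. After scaling, most arrays lay at the floor of -3.32, and the exceptions were the nostril A arrays of rats 1, 2, 6 and 8, at -2.96, -3.30, -2.78 and -2.88. With these signals a difference between the sets was not detectable, and none was tested.

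Timeless, a protein of the replication fork that also binds the clock repressors, did not pass the test. Its probe A_42_P810736 (chr7:1540307-1540366, rn3) gave 4.27, 4.03, 4.09 and 4.07 in rats 1 to 4 and 4.21, 4.22, 4.16 and 4.02 in rats 5 to 8. The rats of both sets were mingled, and nostrils of 1 rat lay up to 0.28 apart. The means were 4.11 ± 0.11 (SD, n = 4) and 4.15 ± 0.09 (SD, n = 4), a difference of 0.04 (SE 0.07, 95% interval -0.13 to 0.20; limma, adjusted p = 0.808). Over the alternatives this value ran from 0.0015 without rats 6 and 7 to 0.0888 without rat 1, with 0.0022 without nostril A of rat 3, 0.0080 without rat 2 and 0.0804 without rat 8. Of its partners at the fork, Clspn and Chek1 were measured, and 0 of their 2 tested probes passed 5% (differences 0.07 and 0.44). Chek1, at 0.44, had an unadjusted p of 0.00669 (limma, adjusted p = 0.126), and its sets did not overlap, as with 11.3% of all probes. Of the markers of proliferating cells, 0 of 12 probes passed 5%, and 3 had an unadjusted p under 0.05, beside 19.1% of all probes. Their summed level was 143 to 163 array medians in rats 1 to 4 and 145 to 177 in rats 5 to 8.

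The other parts of the clock on the same arrays give the setting. Their lists held 37 genes, 31 of them on the array, with 37 tested probes from 30 genes. Of these probes, 5 rose and 1 fell in rats 5 to 8 at 5% by limma, beside 0.786% of all probes called. An unadjusted p under 0.05 was reached by 18, beside 19.1% of all probes, and 15 did not overlap, beside 11.3%. Rises were seen in Dbp, a transcription factor that the clock drives through E-boxes (1.07, SE 0.07; limma, adjusted p = 0.000492), both tested probes of the repressor Per3 (1.08 and 1.09; limma, adjusted p = 0.0125 and 0.0284), the Arntl repressor Nr1d1 (0.89, SE 0.17; limma, adjusted p = 0.0497) and Tef, a relative of Dbp (0.45, SE 0.08; limma, adjusted p = 0.0350). Arntl fell by 0.91 (difference -0.91, SE 0.14; limma, adjusted p = 0.0284). Dbp alone of these passed 1% in this fit, and it fell short of 1% in 3 of 23 alternatives. With slide as a random block both Per3 probes, Arntl and Tef passed 1% too (limma, adjusted p = 0.00024 to 0.00983). That fit used single arrays and called 72 probes of the array at 1%. Dbp and Per3 are also among the genes that the study reports as different between its suppliers. Of 23 alternatives, the call at 5% held in 21 for Dbp, 17 and 12 for the Per3 probes, 13 for Arntl, 11 for Tef and 9 for Nr1d1, and without rats 6 and 7 it held for none of them (limma, adjusted p = 0.0677 for Dbp). That fit set 4 rats against 2 and called 2 probes of the whole array at 5%, and the differences themselves stayed near those with all rats: 1.03 for Dbp, 1.00 and 1.02 for the Per3 probes, -0.88 for Arntl, 0.88 for Nr1d1 and 0.42 for Tef. With normexp the Per3 difference shrank from 1.09 to 0.26 in probe A_43_P16143 (limma, adjusted p = 0.137) and from 1.08 to 0.68 in probe A_44_P196198 (limma, adjusted p = 0.00242).

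The other clock genes followed here were not called at 5%. Nr1d2, the sister of Nr1d1, differed by 0.66 (SE 0.14; limma, adjusted p = 0.0729), 0.30 with normexp (limma, adjusted p = 0.137), and its sets did not overlap. Nr1d2 passed 5% in 3 of 23 alternatives, among them slide as a random block (limma, adjusted p = 0.0338) and sex as a covariate (limma, adjusted p = 0.0248). Npas2, listed with Clock as an activator, differed by -0.59 (limma, adjusted p = 0.0973), and its sets did not overlap. Nfil3 differed by -0.25 (limma, adjusted p = 0.217), and its sets overlapped. Clock, the partner of Arntl, differed by -0.22 (limma, adjusted p = 0.353), Per1 by 0.27 (limma, adjusted p = 0.521) and Per2 by 0.20 (limma, adjusted p = 0.357). These values were not steady. Clock stood at -0.06 with normexp, Per1 at 0.11 without rat 1, 0.13 without rat 2, 0.44 without rat 4 and 0.18 with slide as a random block, and Per2 at 0.13 without rat 3 and 0.12 without nostril A of that rat. Further lists held no called probe. None of the 12 tested probes of 10 further clock kinases passed 5%, with 4 at an unadjusted p under 0.05 and differences from -0.38 to 0.26, and none of the 4 probes of ubiquitin ligase subunits passed, with 0 at such a p. Another 6 probes belonged to other repressors and outputs, which include Bhlhb3, the close relative of Bhlhb2. Of these, 0 passed 5%, 4 had an unadjusted p under 0.05 and 4 did not overlap between the sets, with differences from 0.10 to 0.34. Over all probes, 19.1% had such a p and 11.3% did not overlap. Of the Ror family, Rorb was detected on no array. Neither the members nor these lists were tested against each other, and all share the same rats.

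**Figure D3:**
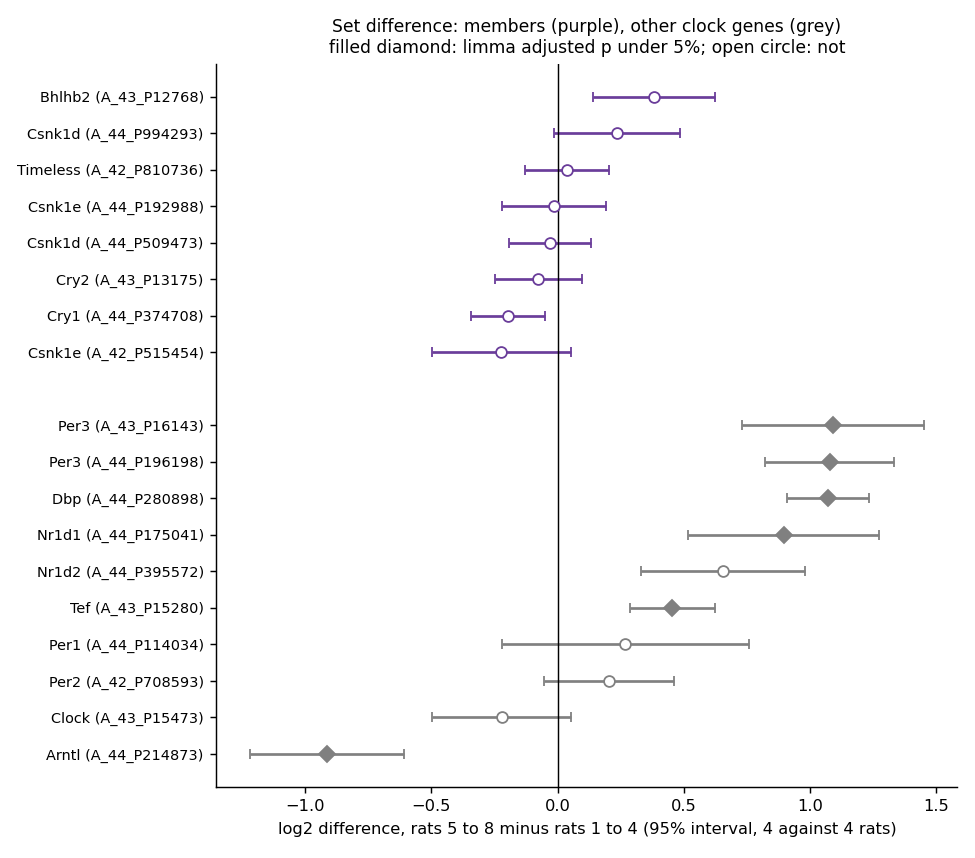
Difference between rats 5 to 8 and rats 1 to 4 in log2 units, with its 95% interval from limma, for the 8 tested member probes (purple) and other clock genes (grey), where filled diamonds passed an adjusted p of 5%. All member points lie between -0.22 and 0.38, and the called genes reach from -0.91 to 1.09.

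Values by rat set the members beside the called genes. Dbp read 5.89, 6.00, 5.82 and 5.87 in rats 1 to 4 and 6.78, 6.99, 7.01 and 7.07 in rats 5 to 8, and Arntl read 3.33, 3.52, 3.65 and 3.97, then 2.60, 2.51, 2.83 and 2.86. Both left a wide gap between the sets. Bhlhb2 had the sign of Dbp and Per3, and Cry1 that of Arntl, without such a gap. They were the members with an unadjusted p under 0.05, and the other 6 member probes had both signs, with differences from -0.22 to 0.23. The 95% interval of Bhlhb2 ended at 0.62 and that of Cry1 at -0.34, short of the differences of Dbp (1.07) and Arntl (-0.91), but those of Bhlhb2 and of Csnk1d probe A_44_P994293, which ended at 0.48, took in the difference of Tef (0.45). The intervals of the 6 member probes other than Bhlhb2 and Cry1 lay between -0.50 and 0.48.

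**Figure D4:**
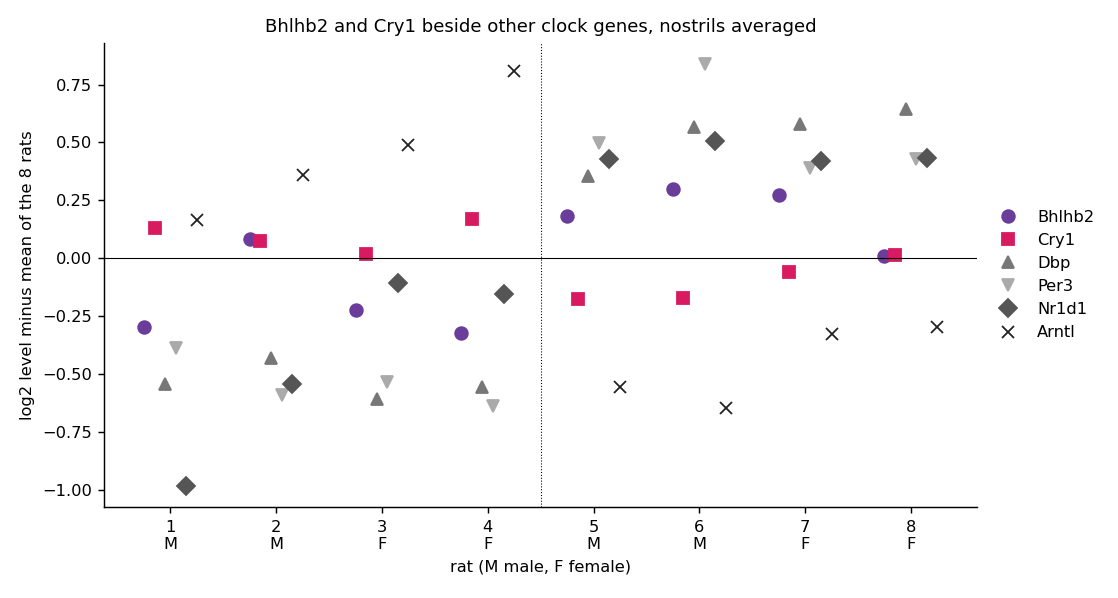
Levels of Bhlhb2 and Cry1 (coloured) and of Dbp, Per3 (probe A_44_P196198), Nr1d1 and Arntl (grey and black) in each rat, nostrils averaged, in log2 units above or below the mean of the 8 rats. Bhlhb2 is low in rats 1, 3 and 4 and near the mean in rats 2 and 8, while Dbp, Per3 and Nr1d1 are below the mean in all of rats 1 to 4 and above it in all of rats 5 to 8.

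The transcripts most like each member over the 15 arrays, by Pearson's r, are given as a description, since arrays of 1 rat share an animal and often a slide. Nearest to Cry1 were Nrbp (r = 0.958) and Ppp4r2 (r = 0.922), and nearest to Cry2 were Mapk6 (r = 0.913) and Znf324 (r = 0.893). Bhlhb2 was followed most closely by Stat5b (r = 0.940) and Fbl (r = 0.939). For the brighter probe of Csnk1d these were Ptbp1 (r = 0.906) and Rnf26 (r = 0.881), for that of Csnk1e Thrap5 (r = 0.940) and Slc39a3 (r = 0.938), and for Timeless Osbpl9 (r = 0.875) and Qser1 (r = 0.855). No clock gene was among these 12, and none of the 12 passed 5% between the rat sets, with adjusted p by limma from 0.108 to 0.917.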

How the data were processed

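Total RNA of RIN above the limit of the study was labeled with Cy3 by linear amplification, and each array was hybridised with 1 sample. The deposited scanner files hold the processed intensity of 45018 spots, which the authors extracted with Agilent Feature Extraction 9.5.1.1 (per the file headers) after background and spatial correction, with no scaling between arrays. A table of ratios was deposited too, and it equals the signal over the array median and then over the probe median: all 100% of ratios lay within 2% of that over 18908 probes brighter than the array median. It served as an alternative only.

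Outlier spots were left out, control spots excluded and saturated spots kept. Signals of the 41012 probes were divided by the array median, raised to a floor of 0.1 and put on the log2 scale. The 27625 probes well above background on at least 7 arrays were tested. Nostrils were averaged, and limma 3.58.1 (R 4.3.3; lmFit, eBayes with trend) compared rats, two-sided, with Benjamini-Hochberg adjustment over all tested probes. The labels do not say whether a rat set marks a supplier, a delivery or a day of killing. The study's methods and its supplier comparison leave a supplier possible. The p-values cover the spread between these rats. Tests on single arrays (nostrils, F-statistic within a set) used 27574 probes. The code was tested on simulated data. The members and lists were chosen with earlier results of these data known. All member probes were described, as were other clock genes past 5%, the set Arntl, Clock, Per1, Per2, Per3, Nr1d1, Nr1d2 and Dbp, and the 2 likest named probes per member. Symbols were matched to RefSeq through the accession of the probe for 8 of 9 member probes. Promoters come from RefSeq (GRCr8), and coordinates of probes from the array (rn3). Alternatives were other scaling, background correction, floors, filters, covariates, blocks and tests, and leaving out rats. Supplier, exons and untranslated regions were not analysed here.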

Additional observations from a re-analysis of the deposited data

Results flagged for a closer look

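Rat 8 stood apart in Cry2. Its mean over the nostrils, 1.28, lay below the next rat of its set, at 1.45, and this gap made up 0.978 of the range of rats 5 to 8, above the 95% limit of Dixon's test for 4 values. Both nostrils were low, at 1.22 and 1.34. Of 16 groups of 4 rats looked at (8 member probes in both sets), this was the 1 that passed, and chance passes about 1 in 20.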

How the results depend on the processing

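Bhlhb2, Cry1, Cry2, Timeless, Csnk1d probe A_44_P994293 and Csnk1e probe A_42_P515454 kept the sign of their set difference under all 23 alternatives, and no member passed 1% under any. Bhlhb2 passed 5% without rat 2 and with the 15 arrays taken as independent (limma, adjusted p = 0.0108), and Csnk1d probe A_44_P994293 in the latter (limma, adjusted p = 0.0418). The signs of 2 probes near 0 turned: Csnk1e probe A_44_P192988 became 0.0023 with normexp and 0.0082 without nostril A of rat 3, and ranged from -0.0574 to 0.0612 as each rat was left out, and Csnk1d probe A_44_P509473 ranged from -0.0789 to 0.0050. Between the sexes, Cry2 became -0.0259 with 75th percentile scaling, -0.0130 with normexp and -0.0477 to 0.0573 as each rat was left out, and normexp gave -0.0105 for Csnk1d probe A_44_P509473 and -0.0625 for Cry1. The causes were not tested.

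The 5 probes of the whole array past 1% between the sets became 8 with normexp, 14 with sex as a covariate, 72 with slide as a random block, 1152 with 15 arrays as independent, 3 with nostril A only, 0 by the methods' t-test (1200 at an unadjusted p under 0.01) and 0 without rats 6 and 7, an alternative chosen after the data were seen. The 217 past 5% ranged from 5 to 899 as each rat was left out, and became 24 with normexp, 77 without a filter, 116 with the ratio table, 121 without trend, 1359 with sex as a covariate, 413 with the slide block, 3829 with 15 independent arrays, 6 with nostril A only, 2 without rats 6 and 7 and 0 by the methods' t-test. The 12 past 1% between the sexes became 3 with detection on 11 arrays and 46 with rat set as a covariate, and the 480 within a set became 932 with 75th percentile scaling. Other counts at 1% stayed within 1.5 times. The methods' t-test was run here on rats with nostrils averaged, which the study's methods do not describe. The study itself reports genes past 1% between its suppliers. No paired analysis was possible because the rat sets share no replicate numbers. A set of 4 rats and dim signal, as for Rora, limit what could be seen.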
